A study of Mus musculus with 18 samples.

Results

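Mature neutrophils carry a characteristic set of surface receptors and alarmin proteins, and 10 genes of that set were examined in mouse bone marrow: S100a8, S100a9, Cxcr2, Il1r2, Csf3r, Retnlg, Trem1, Fpr1, Fpr2 and Clec4d. They were chosen by name, as known neutrophil genes, and each was read from the brightest probeset annotated to that symbol alone. Such a probeset was listed for 8 of the 10 genes, among 18194 genes named in the annotation and 14505 that passed a filter on dim probesets. Retnlg and Fpr1 are not analysed here, because the annotation used here lists no probeset under either symbol. All 8 measured genes passed the filter. The marrow cells, flash frozen before extraction of total RNA, came from 18 C57Bl6 mice, with 1 Affymetrix array per mouse, each called a biological replicate. There were 4 wild-type (WT) mice, and 3 kinds of mice that overexpress CCAT2, a human long non-coding RNA, in every tissue: 4 with the G form (CCAT2-G), 4 with the T form (CCAT2-T) and 6 named CCAT2-GT. Promoter, founder lines, sex and age are not stated in the labels. CCAT2-G and CCAT2-T mice make up the DRAI- group of 8, and the CCAT2-GT mice the DRAI+ group, a status the labels do not spell out. The series title concerns myeloid malignancy, and the comparison here is of mature neutrophil genes between those groups. In whole marrow, more neutrophils and more RNA per neutrophil cannot be told apart.

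Neutrophils are made in the marrow from granulocyte-monocyte precursors under the growth factor G-CSF, whose receptor is encoded by Csf3r. Late in maturation they switch on the chemokine receptor Cxcr2, which draws them into blood toward CXCL ligands, while Cxcr4 holds younger cells in the marrow through the stromal ligand Cxcl12. The calcium-binding proteins S100a8 and S100a9 pair to form calprotectin, an abundant cytosolic alarmin that binds the receptor Tlr4 once released. Il1r2 is a decoy receptor that captures interleukin-1 without signalling, Fpr2 senses formylated and lipid-linked peptides, Trem1 amplifies inflammatory signals through the adaptor Tyrobp, and Clec4d is a C-type lectin that pairs with Clec4e.

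The promoters of 5 of these genes are shown because the results turn on how they vary together. S100a8 and S100a9 are neighbouring genes on opposite strands of chromosome 3, Cxcr2 and Clec4d were the most closely matched pair of genes, and Il1r2 was the most loosely tied to the others over all mice. Each line gives the 250 bases before the annotated start from RefSeq (build GRCm38.p6), 5′ to 3′ on the gene's strand, with matches to 4 motifs in capitals. The windows are chr3:90668821-90669070, plus strand, for S100a8, and chr3:90695722-90695971, minus strand, for S100a9. Those of Cxcr2 (chr1:74153744-74153993, plus strand), Clec4d (chr6:123261857-123262106, plus strand) and Il1r2 (chr1:40085843-40086092, plus strand) follow.
S100a8: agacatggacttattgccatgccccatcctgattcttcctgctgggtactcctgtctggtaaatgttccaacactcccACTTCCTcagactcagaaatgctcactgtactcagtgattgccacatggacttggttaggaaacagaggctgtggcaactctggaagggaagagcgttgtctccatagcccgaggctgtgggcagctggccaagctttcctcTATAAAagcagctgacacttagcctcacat
S100a9: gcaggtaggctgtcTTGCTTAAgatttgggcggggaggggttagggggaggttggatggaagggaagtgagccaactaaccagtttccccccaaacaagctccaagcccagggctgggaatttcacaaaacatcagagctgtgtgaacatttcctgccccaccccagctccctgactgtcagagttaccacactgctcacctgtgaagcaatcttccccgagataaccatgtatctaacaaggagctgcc
Cxcr2: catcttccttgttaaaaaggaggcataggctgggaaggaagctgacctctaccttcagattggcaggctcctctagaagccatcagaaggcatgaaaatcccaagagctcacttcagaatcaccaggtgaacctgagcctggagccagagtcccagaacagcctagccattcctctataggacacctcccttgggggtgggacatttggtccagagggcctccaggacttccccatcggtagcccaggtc
Clec4d: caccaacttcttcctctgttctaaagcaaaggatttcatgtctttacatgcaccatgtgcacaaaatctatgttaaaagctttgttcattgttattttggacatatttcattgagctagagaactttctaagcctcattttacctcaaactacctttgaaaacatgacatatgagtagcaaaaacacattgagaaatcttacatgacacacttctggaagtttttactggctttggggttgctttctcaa
Il1r2: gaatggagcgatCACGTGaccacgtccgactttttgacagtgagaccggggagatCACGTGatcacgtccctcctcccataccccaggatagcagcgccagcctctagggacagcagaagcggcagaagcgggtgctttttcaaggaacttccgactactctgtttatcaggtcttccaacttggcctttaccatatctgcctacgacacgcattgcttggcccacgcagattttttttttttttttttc
All 10 genes were found in the promoter table, and both strands were searched. The TATA box letters TATAAA lay 30 to 25 bases before the start of S100a8. They also occurred farther from the start in Fpr1 and Fpr2, and in 12.4% of the 32851 promoter windows of the same length. AGGAAGT, the core of a site bound by ETS factors such as PU.1, occurred on the reverse strand in both S100a8 and Trem1, and in 7.69% of all windows. TTGCNNAA, letters of a C/EBP site, occurred in S100a9 and Retnlg (reverse strand), and in 9.56% of all windows. The Il1r2 window held the E-box CACGTG 2 times, a motif searched for after the sequences had been seen and present in 6.02% of all windows. The Cxcr2 and Clec4d windows, of the pair that varied most closely together, held none of the 4 motifs.

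The arrays differed from one another in ways that touch these genes. The interquartile range was under 3.1 on 5 arrays, of which 2 were WT, 1 CCAT2-G, 2 CCAT2-T and none DRAI+. Transcripts of the early-response factor Fos were above 12 on the log2 scale in 4 mice, of which 1 was WT, 1 CCAT2-T and 2 CCAT2-GT. Xist, the RNA of the inactive X chromosome in females, was above 8 in 4 mice, of which 3 were CCAT2-GT and 1 CCAT2-T. The 3 arrays richest in stromal transcripts were 1 WT and 2 CCAT2-GT. Markers of B cells differed most between the groups among the cell-type lists. Their mean level was 5.09 to 7.25 in DRAI+ mice and 5.57 to 8.52 in DRAI- mice, with 9 of 9 markers lower in DRAI+ and a median difference of -1.44. Ranges for the monocyte and macrophage markers stand beside the results they accompany. For the other cell types only counts and median differences are given. Of the genes taken to define marrow, Mpo, Elane, Ltf, Alas2 and Cd79a were measured.

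S100a8 and S100a9 were near the top of every array and barely varied. S100a8 was at 13.78, 13.77, 13.76 and 13.77 in the 4 WT mice, at 13.70, 13.70, 13.84 and 13.71 in CCAT2-G mice and at 13.79, 13.78, 13.86 and 13.83 in CCAT2-T mice. In the CCAT2-GT mice it ran from 13.64 to 13.85, with a median of 13.73. All 4 CCAT2-T mice lay above all 4 WT mice, though the highest WT mouse (13.7809) and the lowest CCAT2-T mouse (13.7816) nearly touched, and every other pair of groups overlapped. WT and CCAT2-T were not compared by a test of their own, and the share of all genes separating these groups was not computed. The whole range over 18 mice was 0.22 on the log2 scale. S100a9, its partner in calprotectin, was at 13.97, 13.96, 13.99 and 14.05 in WT mice, at 13.91, 13.88, 14.12 and 13.82 in CCAT2-G mice and at 13.94, 13.94, 14.01 and 14.01 in CCAT2-T mice. It lay between 13.87 and 14.08 in the CCAT2-GT mice, with a median of 13.97. Of the 45101 probesets on an array, that of S100a9 ranked between 1 and 4 and that of S100a8 between 4 and 7 in every mouse. The spread within groups, an SD of 0.0539 for S100a8 and 0.0793 for S100a9, stood at the 0.0207 and 0.159 percentiles of the genes tested, whose median SD was 0.231. Whether these probesets were at the upper limit of the assay was not tested. DRAI+ and WT mice differed by -0.032 for S100a8 (SE 0.065, 95% confidence interval -0.17 to 0.10) and by -0.026 for S100a9 (SE 0.071, interval -0.17 to 0.12). The probeset of S100a8 is of a kind that can match more than 1 closely related transcript.

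**Figure D1:**
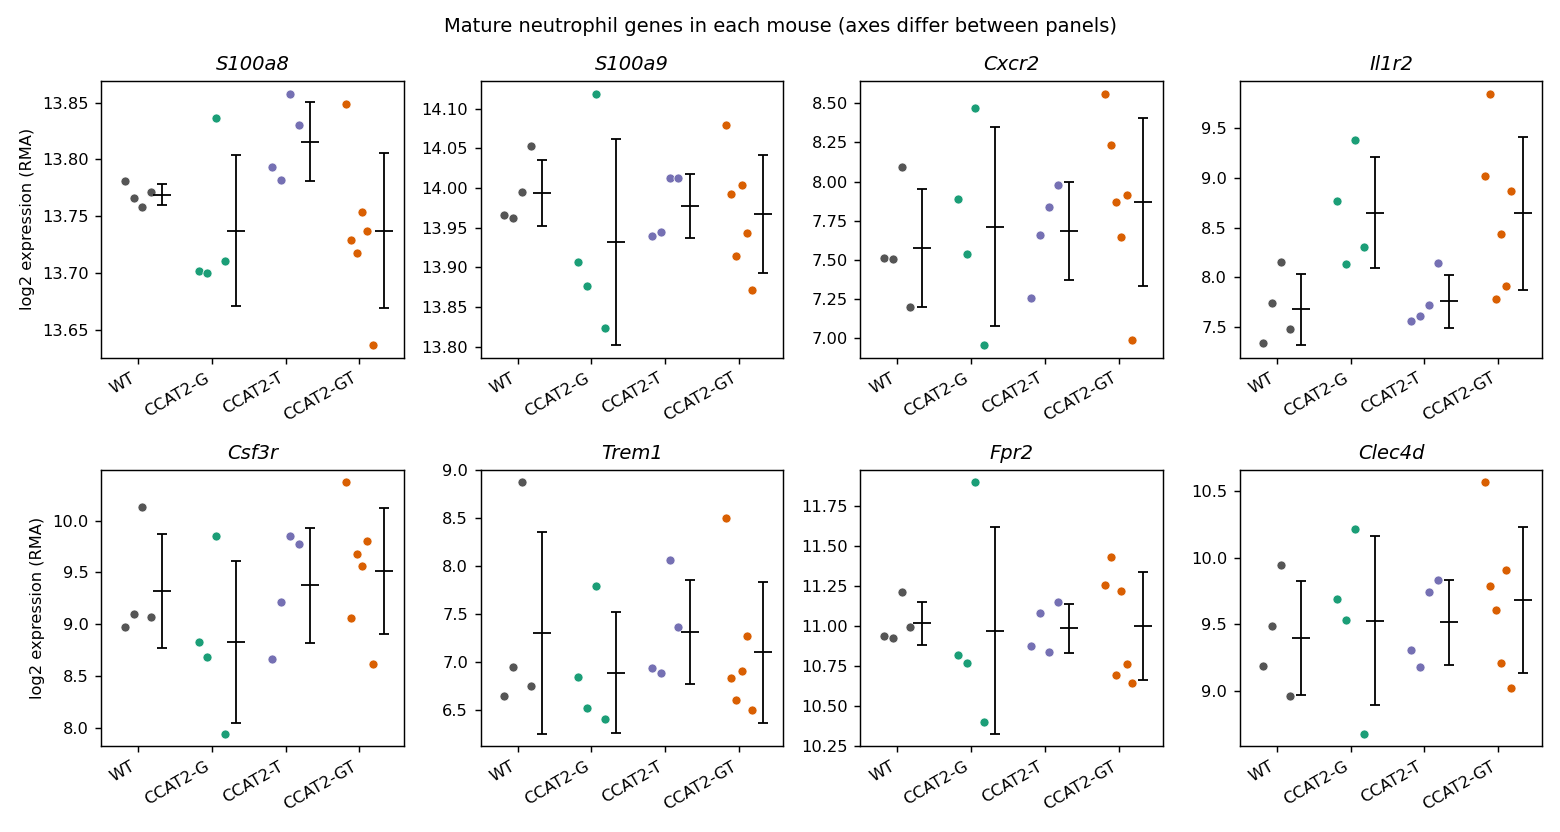
Log2 expression of the 8 measured mature neutrophil genes in each mouse (points) by group, with the mean and SD of each group as a black bar; the vertical axes differ between panels. The mean of Il1r2 was higher in CCAT2-G (8.65) and CCAT2-GT (8.64) than in WT (7.68) and CCAT2-T (7.76) mice, with overlapping values. For all 8 genes the groups overlapped, with 1 exception. For S100a8 the highest WT mouse (13.7809) lay just below the lowest CCAT2-T mouse (13.7816), and the share of all genes separated in this way was not computed.

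Csf3r, the receptor of the growth factor that drives granulocyte production, varied more between mice than between groups. It was at 8.97, 9.10, 10.14 and 9.07 in WT mice, at 8.83, 8.68, 9.85 and 7.94 in CCAT2-G mice and at 8.66, 9.22, 9.85 and 9.77 in CCAT2-T mice. In CCAT2-GT mice it ran from 8.61 to 10.37 with a median of 9.62. All groups overlapped, and WT replicate 3 stood above the other WT mice. DRAI+ mice differed from WT by 0.19 (SE 0.37, 95% interval -0.59 to 0.97) and from DRAI- mice by 0.41 (SE 0.31, interval -0.24 to 1.06). Leaving out WT replicate 3 gave 0.47 for the difference from WT, and leaving out CCAT2-GT replicate 1 gave 0.022. CCAT2-G mice differed from CCAT2-T mice by -0.55 (SE 0.40, interval -1.39 to 0.29).

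Cxcr2, the receptor that releases mature neutrophils from the marrow, had its highest values in single mice of several groups. It was at 7.51, 7.50, 8.09 and 7.20 in WT mice, at 7.89, 7.54, 8.47 and 6.96 in CCAT2-G mice and at 7.26, 7.66, 7.84 and 7.98 in CCAT2-T mice. CCAT2-GT mice ranged from 6.99 to 8.56 with a median of 7.89. The highest mice, CCAT2-GT replicate 1 and CCAT2-G replicate 3, belonged to different groups, as did the lowest, CCAT2-G replicate 4 and CCAT2-GT replicate 6. DRAI+ mice were at 7.87 ± 0.53 (SD, n = 6) and WT mice at 7.58 ± 0.37 (SD, n = 4), a difference of 0.29 (SE 0.28, 95% interval -0.29 to 0.88). Against DRAI- mice the difference was 0.17 (SE 0.23, interval -0.32 to 0.66), and between the alleles it was 0.029 (SE 0.31).

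Il1r2, the interleukin-1 decoy, had the largest difference of the 8 genes in DRAI+ against WT marrow, but it did not pass adjustment. It was at 7.34, 7.74, 8.15 and 7.48 in WT mice, at 8.77, 8.14, 9.38 and 8.31 in CCAT2-G mice and at 7.56, 7.61, 7.72 and 8.15 in CCAT2-T mice. In CCAT2-GT mice the values were 7.78 at the lowest, 8.65 at the median and 9.85 at the highest. The lowest CCAT2-G mouse, at 8.14, was level with the highest WT and CCAT2-T mice, both at 8.15, and CCAT2-GT mice reached from within the WT range to well above it. In order of mean, CCAT2-G (8.65 ± 0.56, SD, n = 4) and CCAT2-GT (8.64 ± 0.77, SD, n = 6) stood within their spread of each other, as did CCAT2-T (7.76 ± 0.27, SD, n = 4) and WT (7.68 ± 0.36, SD, n = 4). DRAI+ exceeded WT by 0.97 on the log2 scale (SE 0.37), a 1.95-fold difference with a 95% interval of 1.14 to 3.34, and each of the 6 DRAI+ mice exceeded the mean of the WT mice. In limma's fit the unadjusted p was 0.0171 and the adjusted p 1.00, and 2.63% of all genes had an unadjusted p under 0.05 in that comparison. CCAT2-G exceeded CCAT2-T by 0.89 (SE 0.36, unadjusted p = 0.0242, adjusted p = 0.756), with 6.29% of all genes under 0.05 before adjustment. DRAI- differed from WT by 0.53 (SE 0.35, 95% interval -0.21 to 1.26) and DRAI+ from DRAI- by 0.44 (SE 0.31, interval -0.21 to 1.09).

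The Il1r2 difference between DRAI+ and WT stayed above 0 whichever mouse was left out, between 0.73 without CCAT2-GT replicate 2 and 1.14 at the most, and its adjusted p was 0.136 to 1.00 over all settings tried. It was 0.83 without the 5 arrays of narrow range, 0.80 with those arrays as a block and 1.21 without the 4 mice of high Fos, a setting chosen after seeing the data, and 1.10 without the 4 arrays of high Xist. For the alleles the same settings gave 0.67, 0.84, 0.87 and 0.87. Among the 5 narrow arrays Il1r2 was at 8.77 in the single CCAT2-G mouse, at 7.34 and 7.74 in the WT mice and at 7.56 and 7.61 in the CCAT2-T mice. Monocyte and macrophage markers were higher in 9 of 10 cases in DRAI+ than in WT mice (median difference 0.36) and in 7 of 10 in CCAT2-G than in CCAT2-T mice (0.42). Their mean level was 8.31 to 8.65 in DRAI+, 7.63 to 8.35 in WT, 7.60 to 8.78 in CCAT2-G and 7.40 to 8.35 in CCAT2-T mice. Their part in the Il1r2 result was not tested.

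Fpr2, a receptor that guides neutrophils to bacterial and host peptides, was at 10.94, 10.93, 11.21 and 10.99 in WT mice, at 10.82, 10.77, 11.90 and 10.40 in CCAT2-G mice and at 10.87, 11.08, 10.83 and 11.15 in CCAT2-T mice. It ranged from 10.64 to 11.43 in CCAT2-GT mice, with a median of 10.99. CCAT2-G mice held both the highest and the lowest value of the study, and their range covered those of the other groups. The difference between DRAI+ and WT mice was -0.017 (SE 0.22), with a 95% interval of -0.47 to 0.43, so the fold lay between 0.723 and 1.35.

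Clec4d, a lectin receptor for microbial glycolipids, was at 9.19, 9.49, 9.95 and 8.96 in WT mice, at 9.69, 9.53, 10.22 and 8.68 in CCAT2-G mice and at 9.31, 9.18, 9.74 and 9.83 in CCAT2-T mice. CCAT2-GT mice ranged from 9.03 to 10.57 with a median of 9.70, and the same 2 mice that were highest for Cxcr2 were highest here. DRAI+ mice differed from WT by 0.29 (SE 0.29, 95% interval -0.31 to 0.89) and from DRAI- mice by 0.16 (SE 0.24, interval -0.34 to 0.67). The latter difference was -0.083 without the 4 mice of high Fos. Its probeset, like that of S100a8, is of the kind that can match several related transcripts.

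Trem1, which amplifies inflammatory signals on neutrophils and monocytes, showed the widest spread within groups, with an SD of 0.758. Its brighter probeset was at 6.65, 6.95, 8.87 and 6.76 in WT mice, at 6.85, 6.52, 7.79 and 6.41 in CCAT2-G mice and at 6.94, 6.89, 8.06 and 7.37 in CCAT2-T mice. In CCAT2-GT mice it ran from 6.51 to 8.50 with a median of 6.87. Each group held 1 mouse well above its others: replicate 3 of WT, CCAT2-G and CCAT2-T and replicate 1 of CCAT2-GT. DRAI+ differed from WT by -0.20 (SE 0.43, 95% interval -1.11 to 0.70), a value that became 0.32 without WT replicate 3. DRAI+ and DRAI- means were both 7.10, a difference of 5.36e-05 (SE 0.36, interval -0.76 to 0.76). The dimmer probeset of Trem1 gave differences of 0.16 (SE 0.42) against WT and 0.43 (SE 0.35) against DRAI- mice. Thus the probesets pointed in opposite directions against WT, and neither passed.

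None of the 8 measured genes passed limma's test at an adjusted p under 0.05 in any of 4 comparisons. The background was equally empty, at 0% of the 14505 genes in each of them. At an unadjusted p under 0.05, DRAI+ against WT had 382 genes (2.63%) and DRAI- against WT 197 (1.36%), while DRAI+ against DRAI- had 1388 (9.57%) and the alleles 912 (6.29%). Of the 8 neutrophil genes, Il1r2 was below that level in DRAI+ against WT and between the alleles, and none was in the other comparisons. With array weights 456 genes passed in DRAI+ against WT, and without CCAT2-G replicate 3 there were 7 in DRAI+ against DRAI-, but none of the 8 was among them in either case. For no gene of the 8 were the groups free of overlap in any comparison. Such separation was found toward higher and lower values in 0.338% and 0.414% of all genes in DRAI+ against WT, and in 0.0345% and 0.0276% in DRAI- against WT. It was found in 0.00689% and 0.0896% in DRAI+ against DRAI-, and in 1.16% and 1.13% between the alleles. In DRAI+ against DRAI-, 7 of the 8 genes had a difference above 0, where 48.3% of all genes did, and the median difference was 0.092 against -0.0072 over all genes. Among them Trem1 (5.36e-05), S100a9 (0.013) and Fpr2 (0.022) were near 0 and changed sign in some settings. The genes also varied together from mouse to mouse, so their signs are not independent. Against WT, 4 of 8 were above 0 in DRAI+ mice (median 0.088; 49.5% of all genes) and 4 of 8 in DRAI- mice (median -0.016; 50.2%). Between the alleles 3 of 8 were above 0 (median -0.030; 49.4%). The comparisons share animals: WT mice enter 2 of them, DRAI+ mice 2, and the DRAI- mice 3, since both allele groups are DRAI-. A miss of the threshold does not show equal levels: for example, the interval ran from 0.463-fold to 1.63-fold for Trem1 in DRAI+ over WT. The narrow intervals of S100a8 and S100a9 set no limit on a change in RNA amount, because their probesets lay within 0.50 and 0.35 of the brightest probeset of each array and an upper limit of the assay was not tested.

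**Figure D2:**
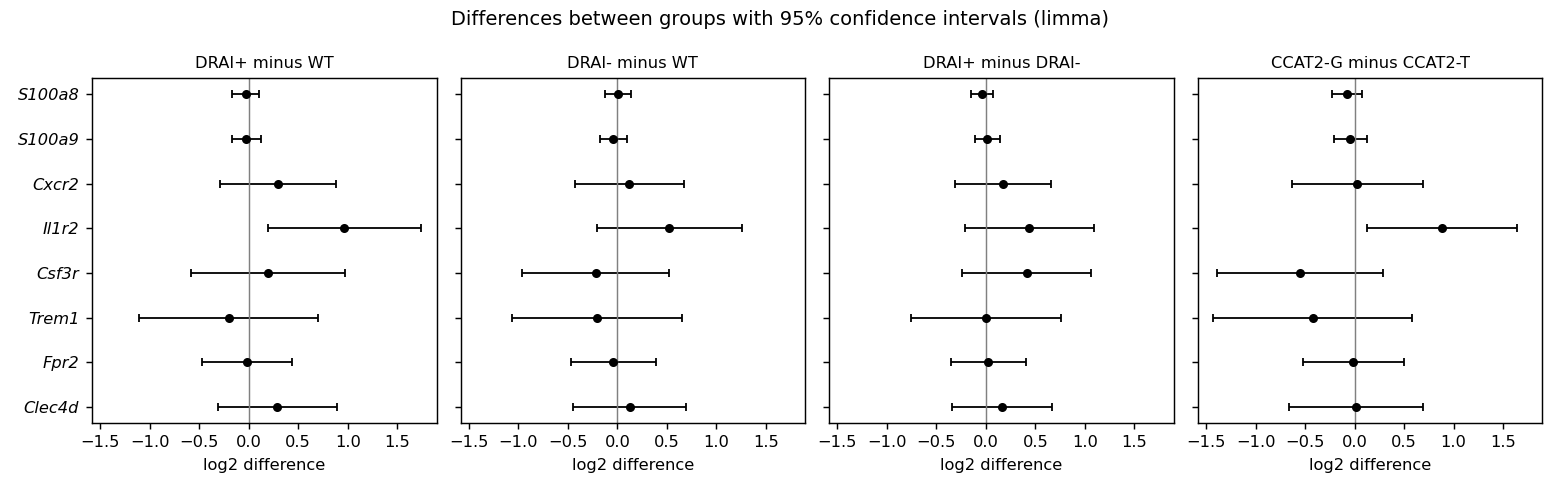
Log2 differences between groups for the 8 genes (points) with 95% confidence intervals from the limma fit (bars), 1 panel per comparison on a shared axis; the grey line marks 0. The intervals of Il1r2 exclude 0 before adjustment in DRAI+ minus WT (0.97) and CCAT2-G minus CCAT2-T (0.89), and those of S100a8 and S100a9 are the narrowest.

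From mouse to mouse the genes moved together, Il1r2 more loosely than the rest over all 18 mice. Over the 18 mice, 27 of the 28 pairs had a Pearson correlation above 0, with a median of 0.609. Of the 28 pairs, 23 passed a two-sided permutation test of r at an adjusted p under 0.05, and 17 passed with Spearman's rho. The share of pairs passing among other genes was not computed, so these counts do not show a trait particular to this set. All 21 pairs without Il1r2 passed for r, the lowest at 0.496, against 2 of the 7 pairs with it. Each pair of values shares its array and its normalization, so these correlations describe the marrow samples as measured.

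The closest pair was Cxcr2 and Clec4d, with r = 0.932 and rho = 0.924 (permutation p = 1e-05 for each, the smallest that 100000 permutations can give, and adjusted p = 0.00014 and 0.00028). It was 0.895 without the 2 mice farthest from the median of Cxcr2, 0.953 among the 13 arrays of wider range and 0.928 within groups. S100a9 and Fpr2 followed at r = 0.842 and rho = 0.831 (permutation p = 3e-05 and 5e-05, adjusted 0.00028 and 0.000467), with 0.706 after leaving out 2 mice and 0.849 among the wider arrays. Csf3r and Trem1 had r = 0.808 and rho = 0.835 (permutation p = 1e-05 and 4e-05, adjusted 0.00014 and 0.000467), 0.768 after leaving out 2 mice and 0.809 among the wider arrays. S100a8 and S100a9, in spite of their small range, had r = 0.78 and rho = 0.783 (permutation p = 0.00017 and 0.00021, adjusted 0.00068 and 0.00147), 0.788 after leaving out 2 mice and 0.815 among the wider arrays. In each of these pairs the 2 mice left out were those farthest from the median of the gene named first. The 5 narrow arrays were too few for a value of their own.

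Il1r2 went with Cxcr2 at r = 0.498 and rho = 0.503 (permutation p = 0.0356 and 0.0354, adjusted 0.0451 and 0.0551). It was 0.506 without the 2 mice farthest from the Cxcr2 median and 0.427 among the wider arrays. For this pair the 2 mice farthest from the Il1r2 median were not left out, so 0.506 does not test their weight. Its r with Fpr2, 0.503 with rho = 0.288 (permutation p = 0.0337 and 0.244, adjusted 0.0451 and 0.284), rested on the 2 mice farthest from the Il1r2 median and was 0.0316 without them. With S100a8 it was -0.137 and rho -0.263 (permutation p = 0.586 and 0.291, adjusted 0.607 and 0.326), and with Csf3r 0.0976 and rho 0.135 (permutation p = 0.698 and 0.592, adjusted 0.698 and 0.637). With group means removed, r of Il1r2 was 0.705 with Fpr2, 0.523 with S100a9, 0.508 with Cxcr2, 0.437 with Clec4d, 0.431 with Trem1, 0.291 with S100a8 and 0.235 with Csf3r. All 7 were thus above 0 within groups. In CCAT2-GT replicate 6 the values lay apart, with a Cxcr2 of 6.99 and the lowest S100a8 (13.64) of the study beside an Il1r2 of 8.87.

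**Figure D3:**
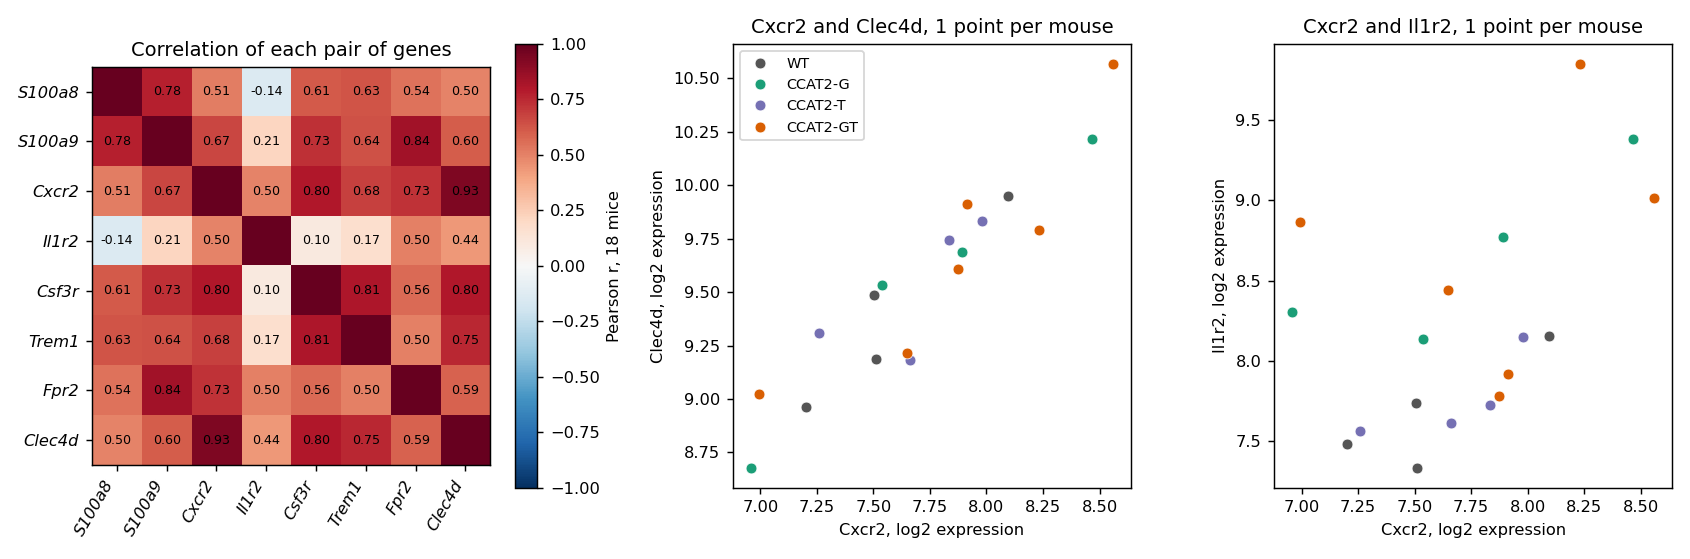
Left, Pearson correlation of each pair of the 8 genes over 18 mice, by colour and number; centre and right, Clec4d and Il1r2 against Cxcr2 in log2 expression, 1 point per mouse, coloured by group. Clec4d followed Cxcr2 in all groups (r = 0.932), and Il1r2 did so loosely (r = 0.498).

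The 5 other genes most like the set, by Pearson correlation over the 18 mice with the mean of the 8 standardized genes, were Ncf1 (0.934), Arg2 (0.929), Ifnlr1 (0.928), Zfyve26 (0.926) and Adam8 (0.919). Ncf1 encodes a subunit of the NADPH oxidase of phagocytes, Arg2 a mitochondrial arginase, Ifnlr1 a receptor chain for type III interferon and Adam8 a surface protease of leukocytes. These values describe the 18 libraries, and with the group means removed they were 0.966, 0.927, 0.955, 0.933 and 0.931. Ncf1 differed by 0.038 (SE 0.28) between DRAI+ and WT and by 0.22 (SE 0.23) between DRAI+ and DRAI- mice without passing.

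Partners of these receptors and alarmins were read from lists of related genes, and none of them passed in any comparison. For the alarmins, Tlr4, Cd14, Ly96 and 4 other receptor and adaptor genes were tested. In DRAI+ against DRAI- mice 5 of the 7 were above 0, with a median of 0.085, Ly96 at 0.66 (SE 0.28), Cd14 at 0.66 (SE 0.39) and Tlr4 at 0.33 (SE 0.21). Of 13 genes on the G-CSF side, which include the ligand Csf3, the kinases and the granulocyte transcription factors, 7 were above 0 in the same comparison, with a median of 0.023. Csf3 differed by -0.09 (SE 0.10), Spi1, which encodes PU.1, by -0.45 (SE 0.24) and Stat5a by -0.33 (SE 0.19).

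Of the genes that act on Cxcr2 or hold neutrophils in marrow, 7 were tested, and 4 were above 0 in DRAI+ against DRAI- mice. The retention receptor Cxcr4 differed by -0.46 (SE 0.21, unadjusted p = 0.0413, adjusted p = 0.513), its ligand Cxcl12 by -0.08 (SE 0.75) and the integrin Itga4 by -0.13 (SE 0.10). Cxcl2, a ligand of Cxcr2, had a wide range. It was between 2.70 and 3.55 in 12 mice and at 5.46, 6.50, 8.33, 9.69, 9.84 and 10.64 in the rest, namely CCAT2-GT replicate 3, CCAT2-T replicates 4 and 3, CCAT2-GT replicates 5 and 1 and WT replicate 3. The highest Cxcl2 thus came from a WT mouse, and all 4 CCAT2-G mice were among the low ones. DRAI+ differed from DRAI- by 1.52 (SE 1.38) without passing.

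On the interleukin-1 side, 7 of 10 genes were above 0 in DRAI+ against DRAI- mice (median 0.11), with Il1rn, the soluble antagonist, at 0.35 (SE 0.24), Casp1 at 0.11 (SE 0.13), Il1b at 0.11 (SE 0.47) and the signalling receptor Il1r1 at -0.10 (SE 0.13). Between the alleles 8 of 10 were above 0 (median 0.23). There 3 of the 10 had an unadjusted p under 0.05 in limma's fit, as did 6.29% of all genes. Named here after their values were seen, they were the co-receptor Il1rap at 0.65 (SE 0.16, unadjusted p = 0.000746), Casp1 at 0.37 (SE 0.15) and the inflammasome adaptor Pycard at 0.56 (SE 0.23). Adjusted p was 0.743 to 0.757. All 4 CCAT2-G mice, at 6.25 to 6.64, lay above all 4 CCAT2-T mice, at 5.34 to 5.96, for Il1rap, a separation seen in 1.16% of all genes. Socs3, a feedback inhibitor induced downstream of Csf3r, was likewise chosen after its values were seen. It was at 6.88, 7.17, 6.92 and 7.08 in CCAT2-G mice and at 5.51, 5.45, 6.78 and 5.73 in CCAT2-T mice, a difference of 1.14 (SE 0.42, adjusted p = 0.743). In WT mice it was at 5.20, 4.89, 6.96 and 4.93, and DRAI+ differed from WT by 1.08 (SE 0.44, adjusted p = 1.00). DRAI- mice also differed from WT, by 0.95 (SE 0.42), without passing. Between DRAI+ and DRAI- mice the Socs3 difference was 0.14 (SE 0.37).

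**Figure D4:**
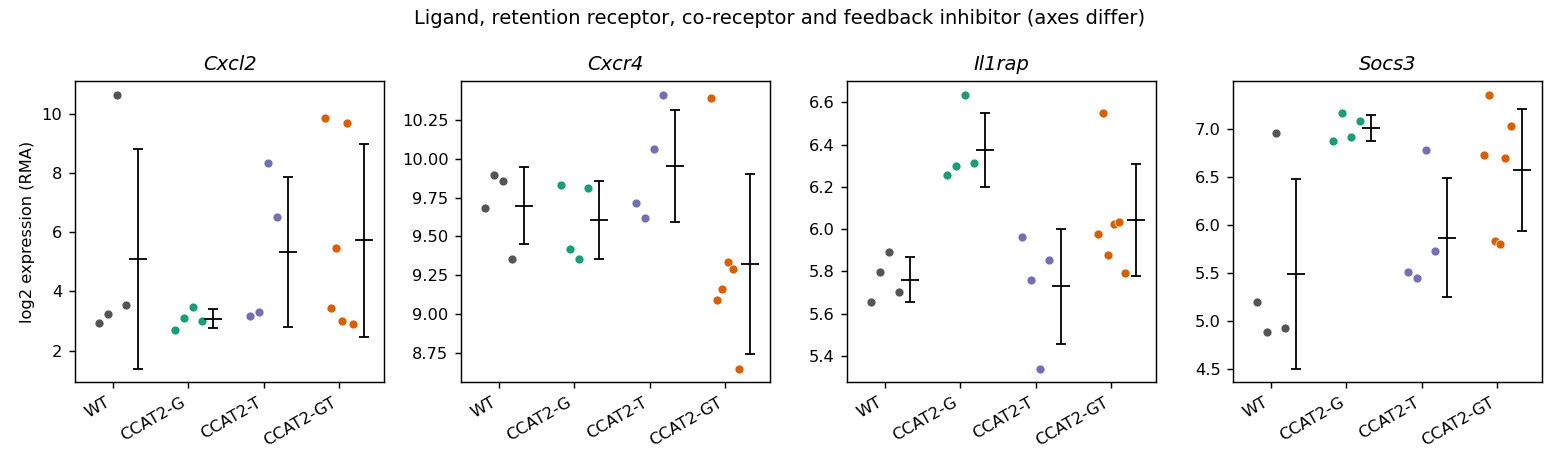
Log2 expression in each mouse (points) by group, with mean and SD (black bars), of the Cxcr2 ligand Cxcl2, the retention receptor Cxcr4, the interleukin-1 co-receptor Il1rap and the feedback inhibitor Socs3; the axes differ. Cxcl2 reached 10.64 in a WT mouse and stayed at or below 3.55 in 12 of 18 mice, and Il1rap was higher in all CCAT2-G than in all CCAT2-T mice.

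Among chemoattractant receptors and ligands, 6 of 9 were above 0 in DRAI+ against DRAI- mice (median 0.06), with Ccrl2 at 0.42 (SE 0.20), C3ar1 at 0.26 (SE 0.18) and the C5a receptor C5ar1 at 0.06 (SE 0.30). Of the partners of Trem1 and Clec4d, 8 of 11 were above 0 (median 0.24). The signalling chain Fcer1g differed by 0.41 (SE 0.16, unadjusted p = 0.0196, adjusted p = 0.486), Clec7a by 0.45 (SE 0.23), Tyrobp, the adaptor of Trem1, by 0.24 (SE 0.13) and Clec4e by 0.25 (SE 0.30). Within the resistin family, to which Retnlg belongs, Retn differed by 0.08 (SE 0.09) and Retnla by 0.12 (SE 0.14). Of 24 other mature neutrophil genes 22 were above 0 in DRAI+ against DRAI- mice, where 48.3% of all genes were, with a median of 0.15. The members of smallest p were Fcgr4, an activating receptor for IgG, at 0.68 (SE 0.18, unadjusted p = 0.00123, adjusted p = 0.456), and Slpi, an inhibitor of neutrophil proteases, at 0.82 (SE 0.25, unadjusted p = 0.00429, adjusted p = 0.456). Mmp9, a gelatinase of neutrophil granules, differed by 0.08 (SE 0.27). Against WT 17 of the 24 were above 0 (median 0.10), and in DRAI- against WT 7 of the 24 (median -0.12).

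Genes of earlier neutrophil stages and of other cells gave the surroundings of these values. In DRAI+ against DRAI- mice 6 of 6 primary granule genes were above 0 (median 0.44), including Mpo at 0.46 (SE 0.21) and Cst7 at 0.43 (SE 0.21), and 6 of 9 secondary granule genes (median 0.07), with Ltf at 0.10 (SE 0.17), Mmp8 at 0.18 (SE 0.22) and Itgb2l at 0.20 (SE 0.25). All 10 monocyte and macrophage markers were above 0 (median 0.42), with Csf1r at 0.53 (SE 0.18) and Adgre1 at 0.77 (SE 0.30). The mean level of the monocyte list was 8.31 to 8.65 in DRAI+ and 7.40 to 8.78 in DRAI- mice. Cd79a, a B-cell receptor chain, differed by -2.32 (SE 0.65, adjusted p = 0.456) without passing, and Pax5, a B-cell transcription factor, by -0.61 (SE 0.17). T and NK cell markers were above 0 in 2 of 7 cases (median -0.18), among them Nkg7 at 0.58 (SE 0.17) and Cd3e at -0.30 (SE 0.17). Erythroid markers were above 0 in 1 of 6 cases (median -0.14), with Slc4a1 at -0.15 (SE 0.13) and Epor at 0.17 (SE 0.16). Eosinophil, basophil and mast cell markers were above 0 in 8 of 9 cases (median 0.48), with Ccr3 at 0.86 (SE 0.45) and Hdc at 0.48 (SE 0.27), and stroma, bone and endothelial markers in 8 of 11 (median 0.22), with Pecam1 at 0.34 (SE 0.19), Kdr at 0.22 (SE 0.19) and Col1a1 at -0.01 (SE 0.16). The part of these cell types in the neutrophil values was not tested.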

How the data were processed

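Bone marrow RNA of 18 mice was measured on Affymetrix arrays. The authors deposited log2 expression values for 45101 probesets, processed with RMA per the submitters' processing notes, which give no version. RMA equalizes the arrays, so a level is relative to the rest of its array. Arrays give no read depth, and their number limits the precision. Replicates are separate samples per their titles.

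In the array annotation 34958 probesets carried 1 gene symbol, 932 several and 9211 none. A gene was read from its brightest probeset by mean, and kept if that mean reached 3.30, the 30th percentile over probesets. The limma package (3.58.1, R 4.3.3) fitted 3 groups (WT, DRAI-, DRAI+), or 4 for the alleles, to all 18 arrays with a trended eBayes step and Benjamini-Hochberg adjustment over 14505 genes at 0.05. Confidence intervals are 95%. Correlations used 100000 two-sided permutations, adjusted over 28 pairs. Of 172 listed genes outside the set, 151 had a probeset and 146 were tested. The genes, lists and tests were chosen with earlier results of these data known. Named were the 8 measured genes, some partners given in advance, the 2 genes of each list with the smallest p in DRAI+ against DRAI-, and the 5 most alike. Of the partners given in advance, Cebpe and Ly6g are not analysed here. The procedure was tested on simulated data.

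Alternatives were median centring, quantile normalization, other filters, other uses of probesets, eBayes without trend or robust, array weights, the compared groups alone, 4 groups, a replicate block, a covariate for the letter in the mouse identifier, the narrow arrays left out or as a block, and the 3 stroma-rich, 4 Xist-high, 4 Fos-high or each single mouse left out.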

Additional observations from a re-analysis of the deposited data

Results flagged for a closer look

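The highest or lowest mouse of a group was set against its neighbour in 32 combinations of gene and group, with Dixon's test, which by chance marks about 1 in 20. It marked 3. Csf3r in WT replicate 3 was 10.14, with the nearest WT mouse at 9.10. Trem1 in the same mouse was 8.87, with the nearest at 6.95. S100a8 in CCAT2-G replicate 3 was 13.84, with the nearest at 13.71, a gap that is large only beside the small range of that gene.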

How the results depend on the processing

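No member passed at an adjusted p under 0.05 in any setting, over 912 recomputed differences, of which 82 changed sign. The differences of Il1r2 kept their sign in all 4 comparisons in every setting run. So did those of S100a8, Cxcr2 and Clec4d in DRAI+ against WT and of S100a9 in DRAI- against WT. The same held for S100a8, Cxcr2 and Csf3r in DRAI+ against DRAI-, and for S100a9, Csf3r and Trem1 between the alleles.

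Counts over all genes, 0 at first, became 456 in DRAI+ against WT with array weights (137 higher, 319 lower), and 1 for the alleles with quantile normalization and with the filter at the 50th percentile. Leaving out single mice gave 0 to 7 in DRAI+ against DRAI- (7 without CCAT2-G replicate 3) and 0 to 1 for the alleles (1 without CCAT2-T replicate 1).

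Signs turned as follows, and the cause was not tested. In DRAI+ against WT they were Trem1 at 0.16 with array weights, S100a9 at 0.0040 and Fpr2 at 0.13 with the replicate block, Csf3r at -0.090 without and -0.0087 with a block for the narrow arrays, S100a9 at 0.0085 and Fpr2 at 0.011 without the stroma-rich arrays, and Fpr2 at 0.021 without the Xist-high and 0.043 without the Fos-high ones. In DRAI- against WT they were S100a8 at -0.011 with median centring, -0.0073 with array weights, -0.0043 without the Xist-high and -0.0079 without the Fos-high arrays, Cxcr2 at -0.0046 and Clec4d at -0.018 without the stroma-rich ones, and Trem1 at 0.18 and Fpr2 at 0.046 without the Fos-high ones. In DRAI+ against DRAI- they were Trem1 at -0.061 and Fpr2 at -0.024 with quantile normalization, and Fpr2 at -0.00058 with array weights. There, S100a9, Trem1 and Fpr2 were at -0.0013, -0.13 and -0.0099 without the narrow arrays, at -0.0041, -0.21 and -0.021 with them as a block, and at -0.00069, -0.25 and -0.0032 without the Fos-high arrays, where Clec4d was at -0.083. For the alleles they were Fpr2 at 0.0051 with median centring and 0.030 without the narrow arrays, S100a8 at 0.015, Cxcr2 at -0.024 and Clec4d at -0.045 with quantile normalization, and Cxcr2 at -0.068 with array weights. Cxcr2 and Clec4d were at -0.25 and -0.31 without the narrow arrays and at -0.0083 and -0.032 with the block.

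Leaving out single mice moved differences across 0 in 15 cases. In DRAI+ against WT the ranges were -0.48 to 0.32 for Trem1 and -0.10 to 0.055 for Fpr2. In DRAI- against WT they were -0.0043 to 0.018 for S100a8, -0.0046 to 0.29 for Cxcr2, -0.34 to 0.053 for Csf3r, -0.42 to 0.32 for Trem1, -0.17 to 0.043 for Fpr2 and -0.018 to 0.31 for Clec4d. In DRAI+ against DRAI- they were -0.0094 to 0.037 for S100a9, -0.28 to 0.14 for Trem1, -0.063 to 0.15 for Fpr2 and -0.014 to 0.29 for Clec4d. For the alleles they were -0.22 to 0.28 for Cxcr2, -0.32 to 0.18 for Fpr2 and -0.22 to 0.30 for Clec4d.

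Of 24 pairs of mice with the same replicate number in different groups, 11 had correlated deviations over 0.1 (range -0.36 to 0.67). Their mean correlation was 0.15, against -0.035 for pairs with different numbers. Why mice with the same number were more alike was not tested. The numbers were not taken as pairs, because they are not said to mark a shared animal, litter or day. With the replicate block every count of calls stayed at 0 and the Il1r2 difference of DRAI+ from WT was 1.09. CCAT2-GT replicates 5 and 6 have numbers of their own and add nothing to that fit.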

Other observations

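Of the mice with high Trem1, several were also high for genes outside the neutrophil set that respond within minutes to stimulation. The 4 mice with Fos above 12 were WT replicate 3 (13.05), CCAT2-GT replicate 1 (12.83), CCAT2-T replicate 3 (12.62) and CCAT2-GT replicate 5 (12.47). Trem1 was 8.87, 8.50, 8.06 and 7.28 in the same mice. Egr1 was 11.54, 10.22, 10.80 and 10.53 there, and the chemokine Ccl3 was 9.00, 8.63, 7.98 and 8.88. CCAT2-G replicate 3 was different, with Trem1 at 7.79 beside Fos at 8.64, Egr1 at 4.26, Ccl3 at 5.62 and Cxcl2 at 3.47. That mouse had the highest Fpr2 (11.90) and S100a9 (14.12) of the study and a Cd79a of 5.07, the lowest among the CCAT2-G mice. Other mice had raised Fos without high Trem1: CCAT2-GT replicate 3 had Fos at 10.49 beside Trem1 at 6.61. CCAT2-T replicate 4 had Fos at 11.32 beside Trem1 at 7.37. The 4 mice with Fos above 12 came from the WT, CCAT2-T and CCAT2-GT groups and not from CCAT2-G. No comparison was made between them and the rest.

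In single mice Il1r2 differed from some of the other neutrophil genes. CCAT2-GT replicate 2, with the highest Il1r2 (9.85), had Csf3r at 9.05 and Trem1 at 6.83. The same mouse had Fpr2 at 11.43, Cxcr2 at 8.23 and Clec4d at 9.79. In it 5 of the 8 genes, Il1r2 included, lay above their mean over all mice. CCAT2-G replicate 4 had the lowest Csf3r (7.94), Cxcr2 (6.96), Clec4d (8.68) and Fpr2 (10.40) of the study, yet an Il1r2 of 8.31, above every WT mouse.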
